A study of Mus musculus with 8 samples.

Results

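The transcripts described here were those of 36 genes of the cell cycle and of nuclear DNA replication, read in hearts of mice with a disrupted Ssbp1 gene and in hearts of control mice. The genes were taken by name from the deposited table as S phase, G2/M and mitosis genes that report on dividing cells in a young heart, and all 36 were found among its 55383 genes. They were grouped here by role into 7 regulators of G1 and of the step into S phase, 10 genes of origin licensing and DNA synthesis, 8 regulators of the G2/M transition and 11 genes of chromosome structure, spindle and checkpoint. Of these, 34 passed the filter on low values, which kept genes that reached a normalized count of 10 in 2 or more of the libraries compared, and 2 (E2f1 and Cdc6) did not.

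Ssbp1 encodes the mitochondrial single-stranded DNA binding protein, and the study asked what its loss does to mitochondrial DNA replication and transcription. Total RNA of whole hearts from mice at about 5 weeks of age was sequenced with a TruSeq protocol. The knockouts, labelled Ssbp1-/-, came from a cross in which exon 3 of Ssbp1, flanked by loxP sites, was removed by a Cre recombinase under the Ckmm (muscle creatine kinase) promoter, and the controls, labelled Ssbp1+/+, carried in the study's account the flanked gene without Cre, both on an inbred C57BL/6N nuclear background. The study's methods place the deletion in heart and skeletal muscle, so that heart cells in which this promoter is silent keep the gene, and the labels do not state which mouse carried Cre. Knockout replicates 1 and 2 and control replicates 1 and 2 were compared, 1 mouse each. For a further 2 mice the title and the genotype label contradicted each other, and their libraries entered no comparison.

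A dividing cell passes from G1 through DNA synthesis (S phase) and G2 to mitosis. D-type and E-type cyclins with their kinases release the E2F factors that switch on replication genes, and a later programme, driven by cyclin A, cyclin B, Cdk1 and Foxm1, builds the spindle and separates the chromosomes. Heart muscle cells of the mouse largely leave the cell cycle soon after birth, and endothelial cells, fibroblasts and blood cells make up much of what still divides in a young heart. In RNA of a whole heart, fewer dividing cells and less RNA per dividing cell cannot be told apart.

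The 4 libraries held 25558246 and 25682093 reads in the knockouts and 24067849 and 19716305 reads in the controls, of which 10734547 and 11259234 in the knockouts and 8981637 and 6568812 in the controls fell on nuclear genes. All values below are normalized counts, reads divided by 1 size factor per library. Ssbp1 itself (chr6:40471352-40484700, GRCm38) had normalized counts of 170 and 163 in the knockouts and 177 and 216 in the controls, a log2 fold change of -0.23 ± 0.16 (SE) with a limma adjusted p of 0.890. The gene-level count takes in all exons. Cardiomyocyte markers (8 genes, Myh6 and Tnnt2 among them) summed to 630441 and 606134 in the knockouts and 634238 and 598925 in the controls. Of the 6 skeletal muscle markers, Acta1 and Ckm, which heart also expresses, passed the filter, and Myh1, Myh2, Myh4 and Tnnt3 were at 5.77 or less in each library. The 4 fat markers were at 5.39 or less, with Cidec and Ucp1 at 0 in all 4 libraries.

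No member passed the test. limma, fitted over 14522 genes with Benjamini-Hochberg adjustment at 0.05, called 0 of the 34 members tested, with a smallest adjusted p of 0.697. Over all genes it called 0.0757% higher and 0.0413% lower in the knockouts, and 0 of 34 is close to that background. edgeR and DESeq2 on the reads recovered from the values also called 0 members, with smallest adjusted p of 0.687 (edgeR) and 0.107 (DESeq2), where they called 0.131% and 0.434% of all genes. At an unadjusted p under 0.05 limma gave 1 member higher, Ccnd2, and 3 lower, Cdt1, Mcm4 and Cenpf, against 3.08% higher and 3.02% lower of all genes. At that unadjusted level edgeR counted 1 member higher and 1 lower. DESeq2 counted 1 member higher and 2 lower.

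The members leaned towards lower values in the knockouts, and most of the lean went when either knockout replicate 1 or control replicate 1 was left out. The log2 fold change, knockout over control on the scale of log2(normalized count + 1), was below 0 in 26 of 34 members and above 0 in 8, with a median of -0.34, against a median of 0.00 and 49.5% below 0 over all genes tested. Both knockouts lay below both controls in 12 members, against 17.5% of all genes, and above both in 1 member, Ccnd2, against 18.1% of all genes. Without knockout replicate 1 the median was 0.01, and without knockout replicate 2 it was -0.61. Without control replicate 1 it was -0.10, and without control replicate 2 it was -0.59. The median was thus near 0 without knockout replicate 1 and only a little below 0 without control replicate 1. Of the 34 members tested, 24 were lowest in knockout replicate 1 and 20 were highest in control replicate 1. With either of the remaining hearts left out the median lay further below 0.

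**Figure D1:**
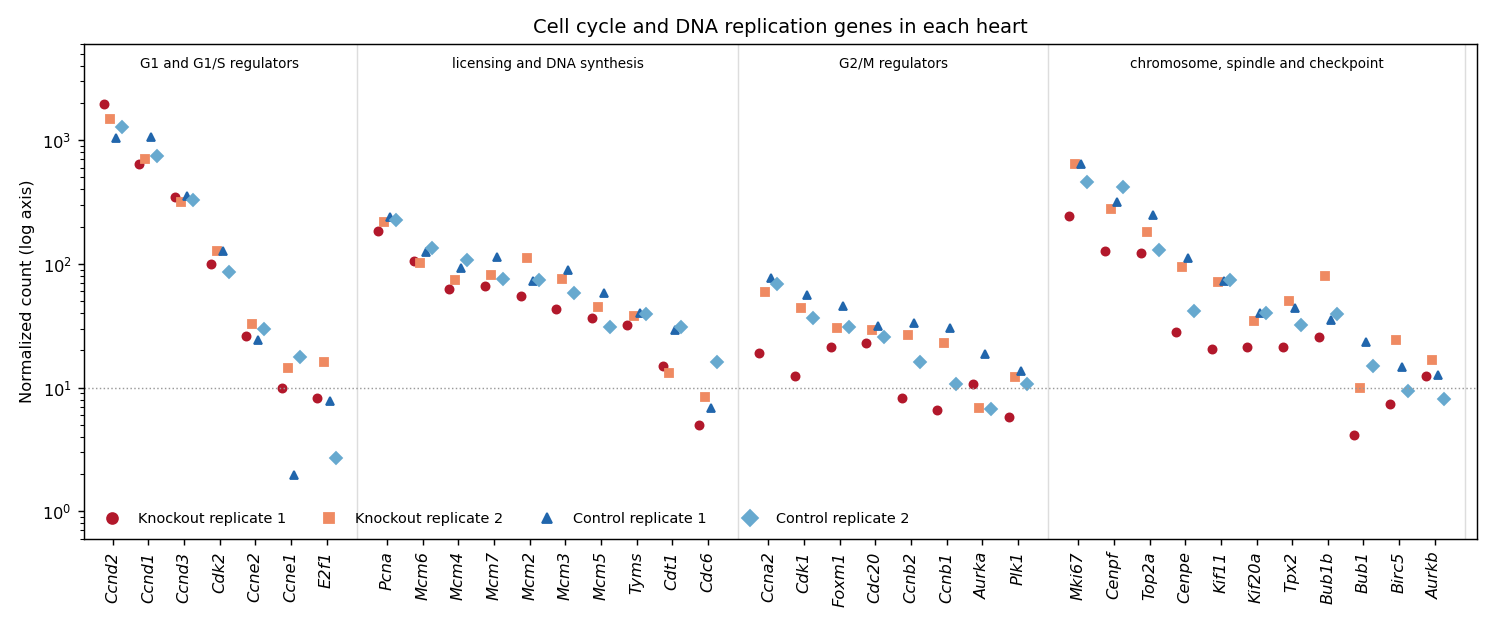
Normalized count (log axis) of each of the 36 members in each of the 4 hearts, grouped by role and ordered by control mean within a role; each point is 1 library and the dotted line marks the filter value of 10. Knockout replicate 1 (filled circles) is the lowest of the 4 libraries in 25 of the 36 members, among them Mki67 at 245, while Ccnd2 is higher in both knockouts than in both controls.

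Ccnd1 and Ccnd2 were the most abundant members, and with Ccnd3 they encode the D-type cyclins, which pair with Cdk4 and Cdk6 to start the exit from G1. Per kilobase of exon, Ccnd1 averaged 143 in the knockouts and 192 in the controls, and Ccnd2 averaged 183 in the knockouts and 123 in the controls. In the controls Pcna, at 97.4 per kilobase, Mki67, at 54.5 per kilobase, and Ccnd3, at 38.8 per kilobase, came next in level, and the lowest of all 36 was E2f1 at 1.67 per kilobase.

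Ccnd2 (cyclin D2, chr6:127125162-127152193) had normalized counts of 1957 and 1493 in the knockouts, against 1033 and 1289 in the controls. The groups did not overlap, and the log2 fold change was 0.57 ± 0.17 (SE), with an unadjusted p of 0.0140 and a limma adjusted p of 0.697. Ccnd1 (cyclin D1, chr7:144929931-144939925) lay the other way, at 643 and 706 in the knockouts, against 1059 and 745 in the controls. Its groups did not overlap either, with a log2 fold change of -0.40 ± 0.18 (SE) and a limma adjusted p of 0.806, but knockout replicate 2 and control replicate 2 differed by little. Ccnd3 (cyclin D3), at 350 and 318 in the knockouts and 354 and 327 in the controls, overlapped between the groups with a log2 fold change of -0.03 ± 0.13 (SE).

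The balance of the D-type cyclins therefore differed by heart. Ccnd2 over Ccnd1 was 3.05 and 2.11 in the knockouts and 0.975 and 1.73 in the controls, above both controls in each knockout and nearly 1 in control replicate 1. Both mice with contradictory labels lay above these controls too, at 3.62 (585H) and 2.02 (586H). Whichever label is read, a control is among them. The 3 D-type cyclins together made up 66.4% and 48.6% of all member counts in the knockouts and 45.8% and 49.6% in the controls. Knockout replicate 1, in which the other members were low, stood apart, and knockout replicate 2 lay between the controls.

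The E-type cyclins and Cdk2, their kinase partner, showed no separation of the groups. Cdk2 was at 99.7 and 126 in the knockouts and 128 and 86.2 in the controls, and Ccne2 (cyclin E2) at 26.4 and 32.9 in the knockouts and 24.4 and 29.6 in the controls. Ccne1 (cyclin E1) was at 9.89 and 14.5 in the knockouts and 1.95 and 17.5 in the controls, so that its log2 fold change of 0.81 ± 0.96 (SE) came with a control group that spanned more than the distance between the groups. E2f1, an E2F factor that activates replication genes, was at 8.24 and 16.1 in the knockouts and 7.82 and 2.69 in the controls, too low to be tested. Its 2 knockouts were above both controls, in counts at which single reads matter.

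The licensing and synthesis genes mostly had log2 fold changes a little below 0. Of 9 tested, 8 had a log2 fold change below 0, and in 5 of the 9 (Cdt1, Mcm4, Mcm6, Pcna and Tyms) both knockouts lay below both controls, against 17.5% of all genes. No gene of this role passed the test. Summed over all 10, the group stood at 605 and 764 in the knockouts and 869 and 794 in the controls, 0.82 of the control mean. Here, unlike in the mitotic genes below, knockout replicate 2 was also below both controls. The mice with contradictory labels, a control among them whichever label is read, were below both controls too, at 685 (585H) and 637 (586H).

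Cdt1 (chr8:122568015-122573554), which loads the replicative helicase onto origins, had 14.8 and 13.0 in the knockouts, against 29.3 and 31.0 in the controls. The replicates of each group lay close together, but on only 18 and 17 reads in the knockouts and 30 and 23 in the controls. The log2 fold change of -1.06 ± 0.38 (SE) had an unadjusted p of 0.0292 and a limma adjusted p of 0.788. It stayed between -1.15 and -0.98 with any 1 library left out, the narrowest range relative to its size among the members with a log2 fold change beyond 1 (the others being Ccna2 and Bub1). In the 2 mice with contradictory labels Cdt1 was at 8.74 (585H) and 8.13 (586H), below both knockouts. Whether titles or genotype labels are read, 1 of these 2 mice is a control. Cdc6, the partner of Cdt1 in helicase loading, was at 4.94 and 8.42 in the knockouts and 6.84 and 16.2 in the controls and was not tested.

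The 6 helicase subunits Mcm2 to Mcm7 form 1 ring, and 5 of the 6 had a log2 fold change below 0, the values running from -0.54 for Mcm4 to 0.09 for Mcm2. Mcm4 (chr16:15623897-15637400) was at 62.6 and 74.2 in the knockouts and 91.9 and 108 in the controls, a log2 fold change of -0.54 ± 0.21 (SE) with an unadjusted p of 0.0436 and a limma adjusted p of 0.806. Mcm6 was at 106 and 101 in the knockouts and 124 and 135 in the controls, also without overlap. Mcm2 was at 55.2 and 111 in the knockouts and 73.3 and 74.1 in the controls, with the controls within 1 count of each other and a knockout on either side.

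The remaining subunits overlapped between the groups. Mcm3 was at 42.8 and 75.0 in the knockouts and 88.9 and 57.9 in the controls. Mcm5 was at 36.2 and 45.1 in the knockouts and 58.6 and 31.0 in the controls. Mcm7 was at 65.9 and 81.1 in the knockouts and 114 and 75.4 in the controls. In all 3 the highest value was that of control replicate 1.

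Pcna, the sliding clamp of DNA polymerases, had 184 and 217 in the knockouts and 241 and 226 in the controls, a log2 fold change of -0.23 ± 0.15 (SE). Tyms, thymidylate synthase, had 32.1 and 38.3 in the knockouts and 40.1 and 39.1 in the controls, a log2 fold change of -0.17 ± 0.28 (SE). In both genes the knockouts lay below the controls without overlap, with limma adjusted p of 0.882 (Pcna) and 0.956 (Tyms). For Tyms, knockout replicate 2 and control replicate 2 nearly coincided.

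**Figure D2:**
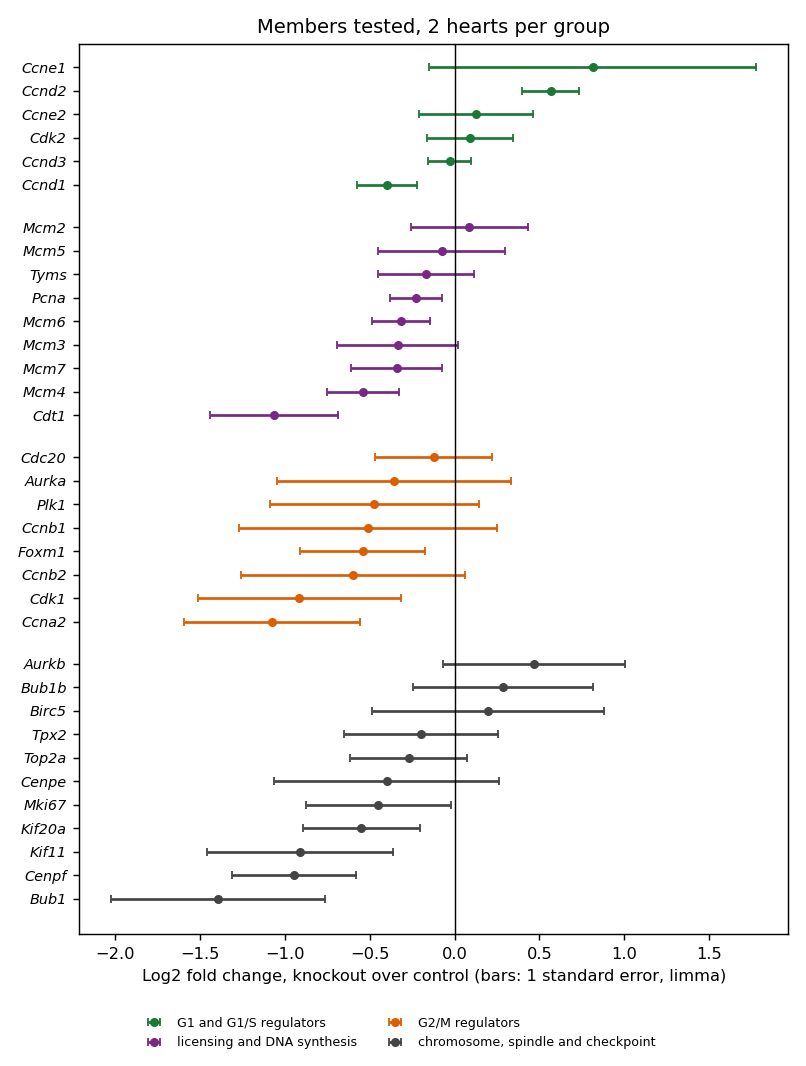
Log2 fold change, knockout over control, of the 34 members tested, with bars of 1 standard error from limma (2 hearts per group), ordered within each role. All 8 G2/M regulators and 8 of 9 licensing and synthesis genes lie below 0, from -0.12 for Cdc20 to -1.08 for Ccna2 among the G2/M regulators, and none of the 34 passed at an adjusted p of 0.05.

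By their sum, the 19 genes of G2/M and mitosis split the knockouts instead of separating the groups. Their summed normalized count was 741 in knockout replicate 1 and 1709 in knockout replicate 2, against 1862 and 1470 in the controls. Knockout replicate 2 thus stood between the controls, and knockout replicate 1 held 0.43 of the sum of knockout replicate 2 (95% counting interval 0.40 to 0.47), against a ratio of 1.27 between control replicates 1 and 2 (1.18 to 1.37). The intervals cover counting error only. In 18 of the 19 knockout replicate 1 was below knockout replicate 2, Aurka being the exception, against 49.7% of all genes tested. In 17 of 19 it was the lowest of the 4 libraries, against 23.5% of all genes. Control replicate 1 was above control replicate 2 in 15 of the 19. Both knockouts lay below both controls in 6 of the 19, against 17.5% of all genes. The knockout mean of the sum was 0.74 of the control mean, but 1.03 without knockout replicate 1 and 0.45 without knockout replicate 2.

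Among the G2/M regulators, the cyclins and their kinase were the most unequal. Cdk1 (chr10:69335146-69352938), the kinase that starts mitosis, was at 12.4 and 43.6 in the knockouts and 55.7 and 36.4 in the controls. Ccna2 (cyclin A2, which acts in S phase and G2) was at 18.9 and 59.7 in the knockouts and 76.2 and 68.7 in the controls, with no overlap between the groups and a log2 fold change of -1.08 ± 0.52 (SE), limma adjusted p 0.815. Without knockout replicate 1 the log2 fold change of Ccna2 was -0.27, and without knockout replicate 2 it was -1.88. That of Cdk1 was -0.92 ± 0.60 (SE), and -0.05 without knockout replicate 1 and -1.79 without knockout replicate 2. Ccnb1 and Ccnb2, the B-type cyclins that activate Cdk1, were at 6.59 and 23.0 (Ccnb1) and 8.24 and 26.8 (Ccnb2) in the knockouts and 30.3 and 10.8 (Ccnb1) and 33.2 and 16.2 (Ccnb2) in the controls. For these 4 genes the ratio of knockout replicate 1 to knockout replicate 2 lay between 0.283 and 0.318.

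Foxm1, a transcription factor of G2/M genes, was at 21.4 and 30.6 in the knockouts and 45.9 and 31.0 in the controls. Its groups did not overlap, though knockout replicate 2 and control replicate 2 nearly coincided. Cdc20, which activates the ligase that ends mitosis, was at 23.1 and 29.1 in the knockouts and 31.3 and 25.6 in the controls, and its log2 fold change of -0.12 ± 0.34 (SE) was the nearest to 0 in this group. Plk1, a mitotic kinase, was at 5.77 and 12.2 in the knockouts and 13.7 and 10.8 in the controls. Aurka, the spindle pole kinase, was at 10.7 and 6.89 in the knockouts and 18.6 and 6.74 in the controls. Both kinases rested on few reads in every library.

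**Figure D3:**
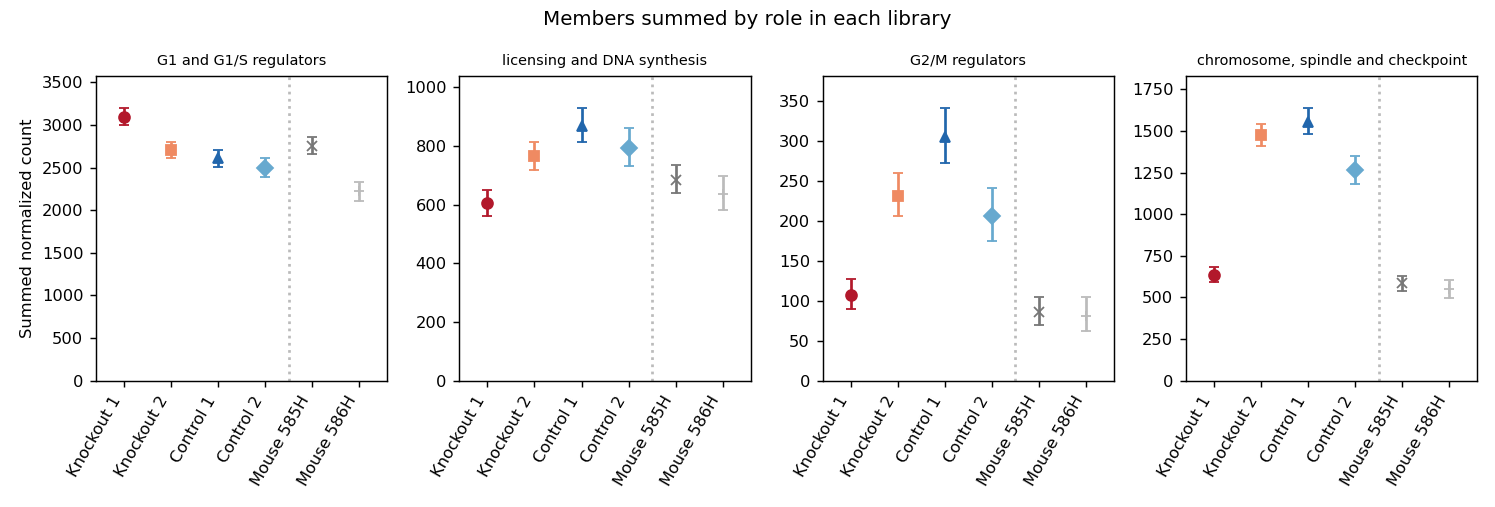
Summed normalized count of the members of each role in the 2 knockout and 2 control libraries and, right of the dotted line, in the 2 mice whose labels contradict each other; bars are 95% counting intervals and each panel starts at 0. For the 11 chromosome, spindle and checkpoint genes knockout replicate 1 stands at 634 and knockout replicate 2 at 1477, and the controls at 1557 and 1264, while the sum of the G1 regulators is highest in knockout replicate 1, which rests on Ccnd2.

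Mki67 (chr7:135689784-135716361), which encodes the proliferation antigen Ki-67 that coats mitotic chromosomes, was the most abundant mitotic member. It stood at 245 and 636 in the knockouts and 639 and 457 in the controls, and the ratio between the knockouts was 0.386 (95% counting interval 0.337 to 0.441). The log2 fold change between the groups was -0.45 ± 0.43 (SE), limma adjusted p 0.914. Without knockout replicate 1 it was 0.24.

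Cenpf (chr1:189640606-189688086), a kinetochore protein, was one of 4 of the 11 genes of this role in which both knockouts were below both controls, against 17.5% of all genes. It was at 126 and 278 in the knockouts and 315 and 418 in the controls, a log2 fold change of -0.95 ± 0.37 (SE) with an unadjusted p of 0.0399 and a limma adjusted p of 0.798. Bub1, a spindle checkpoint kinase, was at 4.12 and 9.95 in the knockouts and 23.5 and 14.8 in the controls, a log2 fold change of -1.39 ± 0.63 (SE), limma adjusted p 0.809, the furthest from 0 of the 34 members. Without knockout replicate 1 the log2 fold change was -0.38 for Cenpf and -0.85 for Bub1. Kif11, the motor that pushes spindle poles apart, was at 20.6 and 71.9 in the knockouts and 73.3 and 74.1 in the controls, with knockout replicate 2 just below both controls and a log2 fold change of -0.91 ± 0.55 (SE), which was -0.03 without knockout replicate 1. Kif20a, a motor of late mitosis, was at 21.4 and 34.4 in the knockouts and 40.1 and 40.4 in the controls.

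The other 7, Mki67 among them, overlapped between the groups. Top2a, which untangles DNA strands, was at 122 and 181 in the knockouts and 248 and 129 in the controls. Cenpe, a kinetochore motor, was at 28.0 and 94.1 in the knockouts and 111 and 41.8 in the controls. Tpx2, which nucleates spindle microtubules, was at 21.4 and 49.7 in the knockouts and 44.0 and 32.3 in the controls. In Top2a and Cenpe the controls themselves were far apart, with control replicate 1 the highest of the 4.

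Bub1b, a checkpoint protein, was at 25.5 and 80.3 in the knockouts and 35.2 and 39.1 in the controls. Birc5 (survivin) and Aurkb, partners in the chromosomal passenger complex, were at 7.41 and 24.5 (Birc5) and 12.4 and 16.8 (Aurkb) in the knockouts and 14.7 and 9.43 (Birc5) and 12.7 and 8.08 (Aurkb) in the controls. These 3 were the mitotic members with a log2 fold change above 0, at 0.29 ± 0.53 (SE) for Bub1b, 0.20 ± 0.68 (SE) for Birc5 and 0.47 ± 0.54 (SE) for Aurkb, and knockout replicate 2 was the highest library in each. Knockout replicate 1 was the lowest of the 4 in Bub1b and Birc5.

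**Figure D4:**
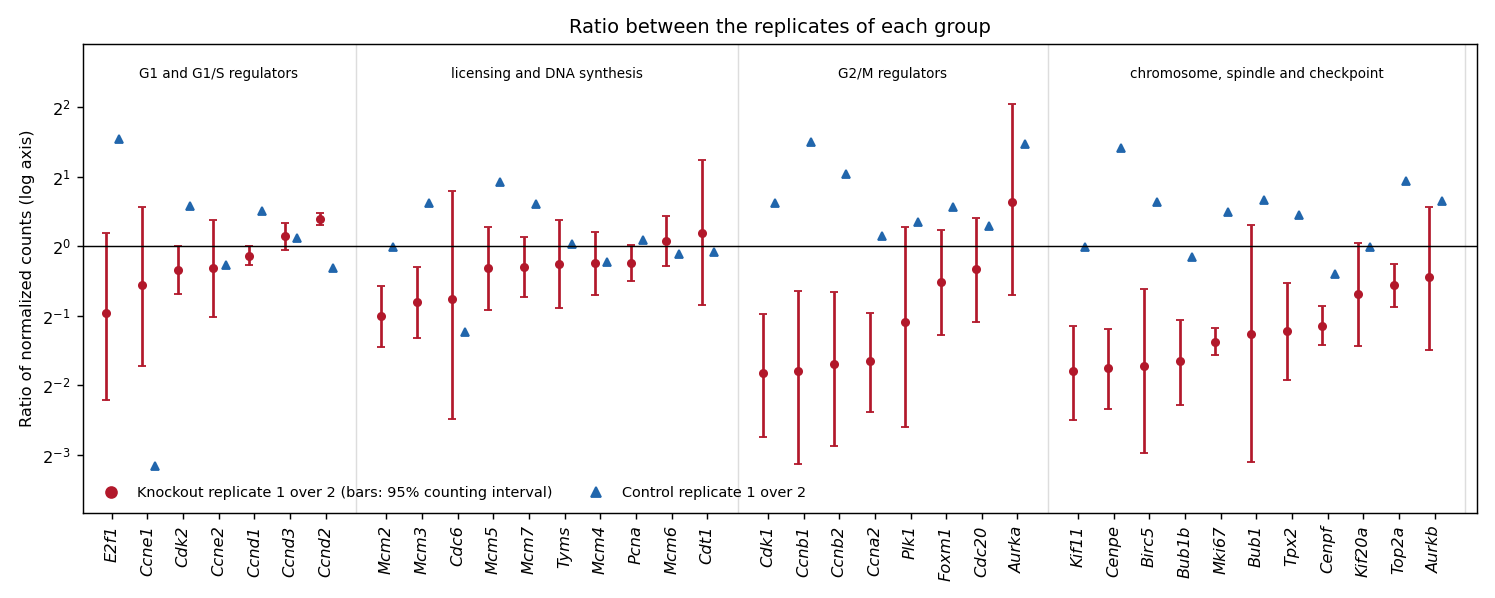
Ratio of replicate 1 to replicate 2 (log axis) within the knockouts (circles, with 95% counting intervals) and within the controls (triangles) for each of the 36 members, ordered within each role. Of the 19 G2/M and mitosis genes, 12 have a knockout interval that ends below 1, and Ccnd2 is the only member whose knockout interval lies above 1, at 1.31 (1.23 to 1.39).

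Summed by role, knockout replicate 1 stood at different fractions of knockout replicate 2. The sum over knockout replicate 1 divided by that over knockout replicate 2 was 1.14 for the G1 regulators (95% counting interval 1.09 to 1.20), 0.79 for licensing and synthesis (0.72 to 0.87), 0.46 for the G2/M regulators (0.37 to 0.57) and 0.43 for chromosome, spindle and checkpoint (0.39 to 0.47), the last 2 intervals overlapping. Between control replicates 1 and 2 the same ratios were 1.04, 1.09, 1.48 and 1.23. The mitotic sum over the licensing sum was 1.23 and 2.24 in the knockouts and 2.14 and 1.85 in the controls, so that only knockout replicate 1 fell outside the control range by more than the distance between the controls. The G1 ratio rested on Ccnd2: without it the G1 sum was 1137 and 1214 in the knockouts and 1575 and 1208 in the controls, a ratio between the knockouts of 0.94 (95% counting interval 0.87 to 1.01), and 4 of the 6 G1 genes tested were lower in knockout replicate 1 than in knockout replicate 2. With 2 hearts per group this ordering of 4 sums is a description.

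Markers of other cells differed between the same libraries. The 6 erythroid markers summed to 14927 and 41880 in the knockouts and 18951 and 14403 in the controls, and all 5 that passed the filter (Hba-a1, Hba-a2, Hbb-bs, Hbb-bt and Alas2) were lower in knockout replicate 1 than in knockout replicate 2. Knockout replicate 2 was thus high in erythroid markers and at the control level in mitotic genes, and knockout replicate 1 was at the control level in erythroid markers and low in mitotic genes. Lymphocyte markers (7 genes) summed to 40.4 and 59.7 in the knockouts and 40.1 and 28.3 in the controls. Neutrophil markers (4 genes) summed to 7.41 and 26.8 in the knockouts and 8.80 and 6.74 in the controls. Both sums were highest in knockout replicate 2, on few reads. The 7 fibroblast markers summed to 11226 and 13734 in the knockouts and 15375 and 14333 in the controls, and 4 of 7 were lowest in knockout replicate 1. The 7 endothelial markers summed to 11547 and 12584 in the knockouts and 11918 and 10811 in the controls, and the 7 macrophage markers to 2356 and 2408 in the knockouts and 3267 and 2240 in the controls. The 6 pericyte and smooth muscle markers summed to 11830 and 14259 in the knockouts and 14286 and 12796 in the controls, and the 4 epicardial and mesothelial markers to 39.5 and 72.7 in the knockouts and 70.4 and 70.1 in the controls. The 4 atrial markers summed to 459 and 1115 in the knockouts and 572 and 1039 in the controls, nearly all of it Nppa, with Myl7 and Sln at 1.53 or less. The fibroblast, pericyte and epicardial sums, and that of the atrial list (in effect Nppa), were, as the mitotic sum was, lowest in knockout replicate 1. Only 2 of the 6 pericyte and smooth muscle markers were themselves lowest there, against 23.5% of all genes tested. Of the 4 epicardial and mesothelial markers 1 passed the filter, and their sum rested on 48 reads in knockout replicate 1. No marker of these lists was at 0 in all 4 libraries, and their part in the spread of the members was not tested.

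Further genes of the same programme, named apart from the 36, were also mostly lower in knockout replicate 1. Of 53 other G2/M and mitosis genes 46 passed the filter and 0 were called. Of these 46, 38 were lower in knockout replicate 1 than in knockout replicate 2 and 32 were lowest in knockout replicate 1, with a median log2 fold change of -0.13. Ccnf (cyclin F) was at 5.77 and 26.0 in the knockouts and 49.8 and 41.8 in the controls, a log2 fold change of -1.79 ± 0.67 (SE), limma adjusted p 0.798. Prc1, which bundles microtubules of the central spindle, was at 31.3 and 67.3 in the knockouts and 60.6 and 90.3 in the controls, and Smc4, a condensin subunit, at 210 and 298 in the knockouts and 289 and 338 in the controls.

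The replication-dependent histone genes, whose transcripts accumulate in S phase, were mostly lowest in the same heart. Of 66 genes 49 passed the filter, 0 were called, 45 of the 49 were lower in knockout replicate 1 than in knockout replicate 2, and 33 were lowest in knockout replicate 1. The controls were unequal too, with 43 of the 49 higher in control replicate 1 than in control replicate 2. Their sum was 3502 and 4601 in the knockouts and 4631 and 3743 in the controls. H4c11 was at 5.77 and 22.2 in the knockouts and 37.1 and 33.7 in the controls, and H2bc21 at 86.5 and 76.5 in the knockouts and 115 and 106 in the controls. Histone genes have near-identical copies between which reads can be divided wrongly, so that single values are uncertain.

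Other S phase genes were mixed. Of 47 such genes 45 passed the filter, 0 were called, 31 had a log2 fold change below 0 and 14 above, and 30 of 45 were lower in knockout replicate 1 than in knockout replicate 2. Dut, which removes dUTP, was at 87.3 and 97.9 in the knockouts and 119 and 132 in the controls, and Clspn, a replication checkpoint adaptor, at 10.7 and 23.7 in the knockouts and 43.0 and 26.9 in the controls. Rfc1, the large subunit of the clamp loader, was higher without overlap, at 472 and 475 in the knockouts and 410 and 381 in the controls.

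The brakes of the cycle were mixed. Of 10 CDK inhibitors and pocket proteins 8 passed the filter and 0 were called, and 6 of the 8 were lower in knockout replicate 1 than in knockout replicate 2. The sum of the 10 ran the other way, at 1833 and 1635 in the knockouts and 1589 and 1599 in the controls, through Rb1, at 406 and 265 in the knockouts and 387 and 269 in the controls, and Rbl2, at 508 and 383 in the knockouts and 363 and 484 in the controls (both named after their values were seen). Cdkn1a (p21) was at 199 and 202 in the knockouts and 117 and 154 in the controls, a log2 fold change of 0.58 ± 0.18 (SE) with an unadjusted p of 0.0191 and a limma adjusted p of 0.750. Cdkn1b (p27) was at 405 and 417 in the knockouts and 372 and 375 in the controls, also without overlap. In both genes the 2 knockouts lay close together.

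Of 18 other G1 kinases and factors of the E2F and DREAM families all passed the filter, 9 with a log2 fold change above 0 and 9 below, and 0 were called. Myc, a growth-related transcription factor, was at 42.8 and 68.1 in the knockouts and 19.5 and 16.2 in the controls, a log2 fold change of 1.55 ± 0.36 (SE) with an unadjusted p of 0.00479 and a limma adjusted p of 0.577. E2f2 was at 6.59 and 26.0 in the knockouts and 24.4 and 49.8 in the controls, low in knockout replicate 1 as the mitotic members were.

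Promoters are shown because the mitotic members moved together between hearts, and genes of this kind are known to share short elements near their start: the cell cycle genes homology region (CHR, searched as TTTGAA or TTCGAA) with CCAAT boxes in G2/M genes, and E2F elements (searched as TTTCCCGC, TTTGGCGC or TTTCGCGC) in replication genes. RefSeq promoters on GRCm38.p6 were found for 27 of the 36 members (29 promoters), and the 250 bases before each start were searched on both strands. The CHR letters were found in 50% of the 14 promoters of G2/M and mitosis members (7 of 14) and in 13.3% of the 15 of the other members, against 17.1% of all 32851 promoters of the same length. CCAAT was found in 92.9% of the promoters of G2/M and mitosis members and in 60% of those of the other members, against 33.9% of all. The E2F letters were found in 7.14% of the promoters of G2/M and mitosis members and in 33.3% of those of the other members, against 1.53% of all. In the TTTCGCGC form an E2F match can overlap a second one on the other strand. A match of letters is not a measured binding site, and no match says only that the letters are not in this window.

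Shown are the mitotic members Mki67, Top2a, Cdk1 and Kif11, and Cdc20, each 5′ to 3′ on the strand of the gene. CHR letters are in capitals on either strand (TTCAAA being TTTGAA of the other strand). Where the stretch holds a CCAAT box, it is in capitals too (ATTGG on the other strand). The ratio of knockout replicate 1 to knockout replicate 2 was 0.386 for Mki67, 0.283 for Cdk1 and 0.286 for Kif11. For Top2a it was 0.675 (counting interval 0.546 to 0.833), inside the interval of Cdc20 (0.793, 0.469 to 1.33). The Top2a controls were further apart, at a ratio of 1.92 between control replicates 1 and 2. Mki67 holds 2 CHR matches at chr7:135716445-135716504 (minus strand), and the others are Top2a at chr11:99024190-99024239 (minus), Cdk1 at chr10:69352913-69352954 (minus), Kif11 at chr19:37376336-37376381 (plus) and Cdc20 at chr4:118437344-118437388 (minus).
Mki67: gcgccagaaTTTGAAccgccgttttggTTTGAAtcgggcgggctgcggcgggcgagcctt
Top2a: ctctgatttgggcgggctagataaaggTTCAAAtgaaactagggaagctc
Cdk1: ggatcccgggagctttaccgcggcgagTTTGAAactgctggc
Kif11: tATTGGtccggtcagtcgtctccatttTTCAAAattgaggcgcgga
Cdc20: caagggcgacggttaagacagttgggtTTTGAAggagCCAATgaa

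E2F letters are shown in capitals in 2 helicase genes, Mcm5 at chr8:75109333-75109394 (plus), with 2 overlapping matches, and Mcm6 at chr1:128359718-128359779 (minus).
Mcm5: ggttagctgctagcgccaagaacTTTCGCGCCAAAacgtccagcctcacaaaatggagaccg
Mcm6: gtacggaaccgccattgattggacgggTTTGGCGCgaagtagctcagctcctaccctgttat
Mcm6 stood at 106 and 101 in the knockouts and 124 and 135 in the controls, and its ratio between the knockouts was 1.05 (95% counting interval 0.82 to 1.35), against 0.286 (0.176 to 0.449) for Kif11 and 0.793 (0.469 to 1.33) for Cdc20. The letters did not follow the split gene by gene: Cdk1, at a ratio of 0.283, also holds an E2F match, Mcm2 and Mcm7 hold the CHR letters, and the promoters of Ccnb1, Cenpe, Cenpf and Bub1 hold none. For Mcm5 and Mcm6, unlike the other promoters, the bases after the RefSeq start were not found in the gene's GENCODE vM21 transcripts.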

How the data were processed

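Total RNA of mouse hearts was sequenced. Reads were mapped by the authors to a GRCm38.p6 genome with mitochondria-like nuclear stretches masked (STAR 2.7.3a), then counted by strand against GENCODE vM24 (Salmon 1.1.0, tximport) and normalized (DESeq2 1.26.0). The deposited signal values are counts divided by 1 size factor per library; 100% were whole multiples of 1 read within 0.001, which gave the reads. A second deposited table holds only the authors' own comparison (fold changes, p-values) and was not used.

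Genes that reached a normalized count of 10 in 2 or more of the compared libraries were tested with limma 3.58.1 in R 4.3.3 (two-sided, mean-variance trend) on log2(normalized count + 1), with Benjamini-Hochberg adjustment over all 14522. Mice 585H and 586H, with contradictory labels, entered no test. With 2 mice per group, p-values rest on the spread between single hearts. Members and gene lists were chosen with earlier results of these data known. All 36 members are named, and of each further list the 2 or 3 genes with the smallest unadjusted p (no gene of these lists was called). The 19 G2/M and mitosis members were summed after their values were seen. Alternatives covered the pseudocount, filter, scaling, variance model, a replicate block, each library left out, edgeR 4.0.16 and DESeq2 1.42.0. limma was also run on simulated counts with changes placed only in well-expressed genes, which does not measure its power for members at low counts. Gene positions and exon lengths came from GENCODE vM21, also on GRCm38, and sequences from RefSeq. Counting intervals are 95% exact intervals on recovered reads. Figures used Python 3.11.15 and matplotlib 3.10.9.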

Additional observations from a re-analysis of the deposited data

Results flagged for a closer look

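Flagged were members whose normalized count in a library outside the comparisons was above both controls. In the library of mouse 585H these were Ccnd2 at 1814, Pcna at 243 and Tpx2 at 58.6, against 1033 and 1289 (Ccnd2), 241 and 226 (Pcna) and 44.0 and 32.3 (Tpx2) in the controls. In the library of mouse 586H they were Ccne2 at 56.9 and Tyms at 46.1, against 24.4 and 29.6 (Ccne2) and 40.1 and 39.1 (Tyms) in the controls. No test was made, since the labels of these mice contradict each other.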

How the results depend on the processing

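Of 450 member values under 14 alternatives 424 kept their direction, and 0 members were called in any setting. The 26 that changed sign all came from leaving out 1 library, in 17 members, and the log2 fold changes with 1 library left out ranged from -0.097 to 0.041 for Ccnd3, -0.51 to 1.07 for Ccne1, -0.029 to 0.28 for Ccne2, -0.19 to 0.38 for Cdk2, -0.41 to 0.58 for Mcm2, -0.73 to 0.061 for Mcm3, -0.52 to 0.37 for Mcm5, -1.34 to 0.32 for Ccnb1, -1.39 to 0.20 for Ccnb2, -0.96 to 0.0099 for Plk1, -0.28 to 0.037 for Cdc20, -1.13 to 0.24 for Mki67, -0.74 to 0.20 for Top2a, -0.097 to 0.996 for Birc5, -0.52 to 1.09 for Bub1b, -1.26 to 0.46 for Cenpe, -0.79 to 0.39 for Tpx2. The replicate numbers are shared by knockouts and controls (Pearson r 0.31 and Spearman rho -0.01 over 14522 genes of the replicate differences), and with a replicate block 0 members and 30 genes in all were called. Over all genes 17 were called, against 6 without a mean-variance trend, 63 with DESeq2 and 6 to 33 with 1 library left out. The summed count of the members in knockouts over controls was 0.95, against 0.78 without the D-type cyclins, 0.82 with equal weights and 0.88 to 1.03 with 1 library left out. For the 19 G2/M and mitosis members it was 0.74, and 0.45 to 1.03 with 1 library left out, an alternative added after seeing the data. With 2 hearts per group, differences of the size seen here could not be told from the spread between hearts. Members under a normalized count of about 10 rest on few reads.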

Other observations

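The 2 mice outside the comparisons had low mitotic members. The 19 G2/M and mitosis genes summed to 671 in the library of mouse 585H, whose title says wild type and whose genotype label says Ssbp1-/-, and to 630 in that of mouse 586H, whose title says knockout and whose genotype label says Ssbp1+/+. In the libraries compared the sum was 741 and 1709 in the knockouts and 1862 and 1470 in the controls. Mki67 was at 219 (585H) and 138 (586H), and Cdk1 at 13.1 (585H) and 2.71 (586H). The mitotic sum over the licensing sum was 0.978 (585H) and 0.989 (586H), and Ccnd2 over Ccnd1 was 3.62 (585H) and 2.02 (586H). Both mice therefore lay with knockout replicate 1 in mitotic genes, whichever label is read.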
